A study of Mus musculus with 9 samples.

Results

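Amino acid transporters of brown adipose tissue (BAT) were examined in GHRH-KO mice and wild-type littermates. The 10 genes (Slc7a5, Slc3a2, Slc7a10, Slc7a1, Slc7a8, Slc38a2, Slc1a5, Slc43a1, Slc36a2 and Slc1a3) were taken by exact match of their symbols, and all 10 were found among the 24356 gene symbols of each table. RNA from the BAT of 9 mice was sequenced, with 1 library per mouse: 2 KO females, 2 KO males, 3 WT females and 2 WT males. The KO mice carry a germline disruption of Ghrh, the hypothalamic hormone that drives growth hormone release, so every tissue develops with little growth hormone. Both genotypes came from 1 colony of mixed C57BL6 and 129SV ancestry and ate the same chow, and their ages are not given in the sources used here. Values are FPKM, in which fragments are divided by transcript length and by library size, so that levels can be compared between genes.

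Amino acids cross the plasma membrane through carriers of several solute carrier (SLC) families. Members of the SLC7 light chain group, such as LAT1 (Slc7a5), reach the cell surface only when paired with the heavy chain CD98hc (Slc3a2), and they exchange 1 amino acid for another. Other carriers, such as the SLC1 and SLC38 families, draw amino acids in with sodium, and SLC36 carriers move them with protons. In brown fat, imported amino acids serve as fuel, as building blocks and as a signal to the growth kinase mTORC1. The system is known to respond both to hormones and to amino acid shortage.

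The targeted gene ran against the genotype labels, so groups are called by their labels throughout. Ghrh (chr2:157329497-157347506 on GRCm38, also called mm10) was at 0 FPKM in the 5 libraries labelled WT and between 0.233 and 0.846 FPKM in the 4 labelled KO. Every direction given here therefore rests on the labels. Ghr, the growth hormone receptor, had a log2 difference (labelled KO minus labelled WT) of -0.98 (SE 0.24, limma adjusted p 0.0660), and Igf1, its target, one of -1.84 (SE 0.45, adjusted p 0.0661). Ucp1, the uncoupling protein that defines brown fat, averaged 2504 ± 350 FPKM in libraries labelled KO and 1820 ± 384 in those labelled WT (SD, n = 4 and 5). Its log2 difference was 0.52 (SE 0.13, limma adjusted p 0.0739). All 11 brown adipocyte markers were above 0 in every library, and none passed an adjusted p of 0.05. An unadjusted limma p under 0.05 was reached by 6 of the 11, 3 higher and 3 lower, against 20.2% of all tested genes. The log2 differences of the 11 were above 0 for 5 and below 0 for 6, where 62.5% of all tested genes were below 0. The sum of FPKM ran from 380558 to 443569. The number of fragments is unknown, and the depth estimated from low values ran from 0.914 to 1.14 relative to 1 library. The library KO male 1 stood apart, with Spearman correlations to the others of 0.924 to 0.934.

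Skeletal muscle markers moved with the labels. The sum over 12 muscle markers was 2642 to 11620 FPKM in libraries labelled KO and 406 to 2199 in those labelled WT. Of the 12, 3 (Acta1, Myh1 and Mylpf) were called higher, as were 1.43% of all tested genes. All 12 had estimates above 0 and an unadjusted limma p under 0.05, which 20.2% of all tested genes reached. For 8 of the 12, every library labelled KO lay above every library labelled WT, where 9.07% of all tested genes did not overlap in either direction. White adipocyte markers summed to 50.2 to 117 FPKM under the KO label and to 93.4 to 415 under the WT label. Of the 8 listed, 5 could be tested, and 2 (Hoxc10 and Tcf21) were at 0 in all 9 libraries. All 5 had estimates below 0, as did 62.5% of all tested genes. Lep, the gene of the satiety hormone leptin, was called lower, as were 2.17% of all tested genes. In KO male 1 the lymphocyte markers summed to 220 FPKM against 1.75 to 3.95 elsewhere, and the macrophage markers to 551 against 43.1 to 165. The macrophage sum was 43.1 to 54.2 FPKM in the other libraries labelled KO and 68.85 to 165 in those labelled WT. All 8 macrophage markers had estimates below 0 over both sexes, as did 62.5% of all tested genes. Of 8 progenitor and fibroblast markers, Col1a1 and Lum, genes of the extracellular matrix, were called lower under the KO label (log2 differences -1.10 and -1.22, limma adjusted p 0.0453 and 0.0459), and so was 1 of 8 macrophage markers, the scavenger receptor Cd163 (-0.92, adjusted p 0.0347), beside 2.17% of all genes. The fibroblast markers summed to 131 to 248 FPKM under the KO label and 170 to 285 under the WT label. Without KO male 1, the highest of these sums under the KO label was 161.5 FPKM. None of 8 endothelial markers was called by limma, with sums of 142 to 209 and 163 to 221 FPKM. All 8 estimates were below 0, and 4 had an unadjusted p under 0.05. Nor was any of 6 Schwann cell markers called, 1 of them with an unadjusted p under 0.05 (48.9 to 99.1 and 53.6 to 69.5 FPKM). Of all tested genes, 62.5% had an estimate below 0. An unadjusted limma p under 0.05 was reached by 20.2%, and by 14.2% with a negative estimate. The part of these cell types in the transporter values was not tested except where a value is given. In whole tissue, fewer cells of a type and less RNA per cell cannot be told apart.

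All 10 transporters were above 0 in all 9 libraries, and their levels spanned from under 1 to about 300 FPKM. The neutral amino acid carriers Slc36a2 and Slc1a5 were the most abundant, with means over the 9 libraries of 180 and 165 FPKM, above 97.5% and 97.3% of the 14675 genes tested. Slc3a2 followed at 25.3 FPKM, Slc1a3 at 16.9, Slc38a2 at 10.99, Slc7a8 at 5.62, Slc7a10 at 4.12 and Slc43a1 at 3.72. Slc7a5 at 0.859 FPKM and Slc7a1 at 0.621 were the lowest. The first 2 did not hold a fixed order, since the ratio of Slc1a5 to Slc36a2 ran from 0.612 in WT female 3 to 1.32 in WT male 2 and was above 1 only in the 2 males labelled WT. The ranges of other neighbours also overlapped. Slc1a3 exceeded Slc3a2 in both males labelled WT, and Slc38a2 exceeded Slc1a3 in KO female 1, both males labelled KO and WT female 3. Slc7a10 exceeded Slc7a8 in WT male 2, WT female 1 and KO male 2, and crossed Slc43a1, as Slc7a5 crossed Slc7a1.

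**Figure D1:**
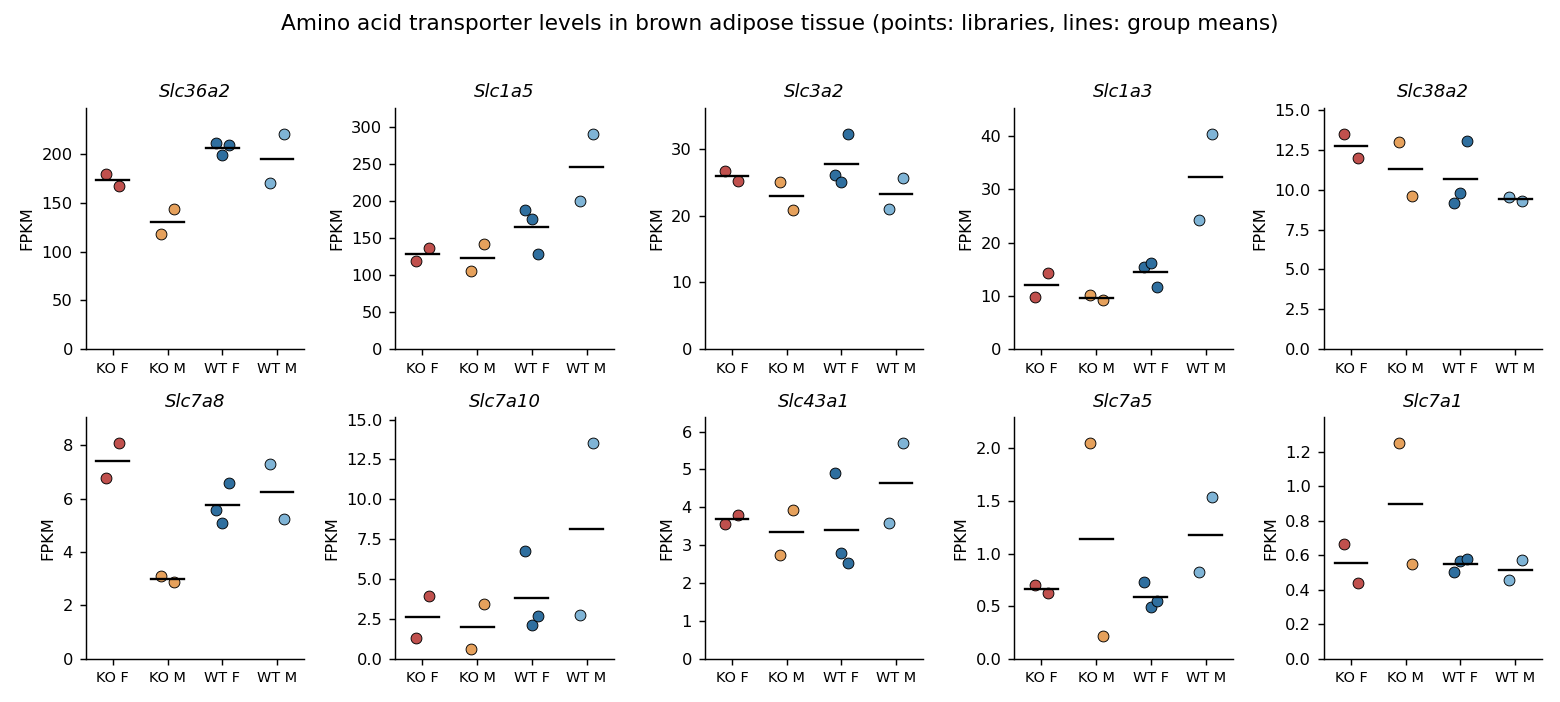
FPKM of the 10 transporters, 1 panel per gene with its own linear axis from 0, where points are libraries and lines the means of the 4 label and sex groups (F female, M male). Slc36a2 and Slc1a5 lie above 100 FPKM in every library, and Slc7a5 and Slc7a1 lie near or under 1 FPKM except in KO male 1 and, for Slc7a5, WT male 2.

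With the label comparison averaged over the sexes, 1 of the 10 transporters, Slc1a3, passed an adjusted p of 0.05 (10%), where 3.60% of all tested genes were called (2.17% lower and 1.43% higher). The log2 difference was below 0 for 8 of the 10, against 62.5% of all genes. The median over the 10 was -0.31 against -0.07 over all genes. An unadjusted p under 0.05 was reached by 4 of the 10 (Slc1a3, Slc36a2, Slc1a5 and Slc7a8), all with negative estimates, where 20.2% of all genes reached it and 14.2% did so with a negative one. For none of the 10 were all libraries labelled KO on 1 side of all libraries labelled WT, which held for 9.07% of the genes. Exact permutation tests over the 9 libraries (two-sided, smallest possible p 0.00794) gave 0.0238 for Slc36a2, 0.0317 for Slc1a5 and 0.0397 for Slc1a3, and from 0.127 to 0.841 for the others. Under the linear model of the study's methods, whose label term is the female difference, 0 of the 10 had a p under 0.01 (3.43% of all genes), and averaged over the sexes 1 did, Slc1a3 (p 0.00737, 7.54% of all genes, n = 4 and 5 libraries in an ordinary linear model).

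**Figure D2:**
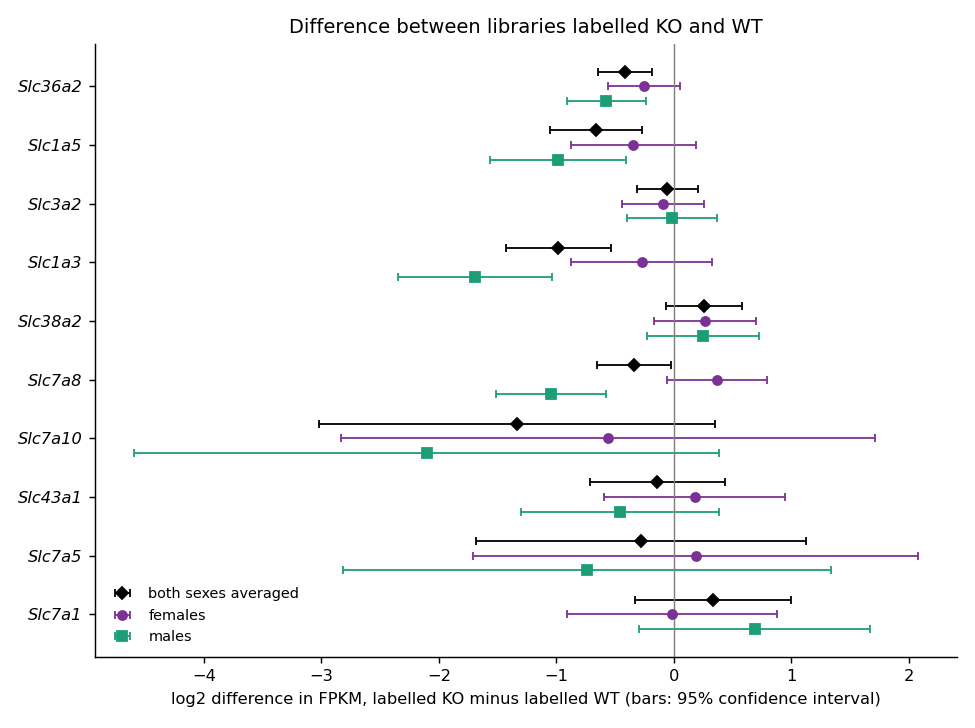
Log2 difference in FPKM, labelled KO minus labelled WT, for each transporter over both sexes, in females and in males, with 95% confidence intervals from limma. The interval over both sexes excludes 0 for Slc1a3, Slc36a2, Slc1a5 and Slc7a8, and the male estimates of these 4 lie between -1.69 and -0.58.

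Promoter windows are shown for Slc1a3, the transporter called by label, and for Slc7a8. For Slc7a8, libraries labelled KO and WT did not overlap within either sex, with opposite directions in females and males. They are 300 bases around the start of the gene in RefSeq (GRCm38.p6), both on the minus strand at chr15:8710758-8711057 and chr14:54781837-54782136, and are written 5′ to 3′ with the GC box GGGCGG in capitals.
Slc1a3: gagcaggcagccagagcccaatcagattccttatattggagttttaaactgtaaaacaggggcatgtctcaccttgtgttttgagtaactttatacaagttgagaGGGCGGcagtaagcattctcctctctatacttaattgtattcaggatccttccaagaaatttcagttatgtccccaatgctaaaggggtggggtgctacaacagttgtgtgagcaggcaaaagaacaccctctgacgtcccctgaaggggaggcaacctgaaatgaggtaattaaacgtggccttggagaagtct
Slc7a8: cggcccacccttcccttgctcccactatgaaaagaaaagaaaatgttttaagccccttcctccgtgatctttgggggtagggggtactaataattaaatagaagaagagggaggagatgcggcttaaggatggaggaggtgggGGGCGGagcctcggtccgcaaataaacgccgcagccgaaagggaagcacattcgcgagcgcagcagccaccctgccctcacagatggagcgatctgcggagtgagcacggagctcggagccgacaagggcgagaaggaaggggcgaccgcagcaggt
RefSeq windows were matched for 7 of the 10 transporters, 8 windows in all, and Slc7a5, Slc1a5 and Slc36a2 had none in the table. The GC box, searched on both strands, was in at least 1 window of all 7 (7 of 8 windows), against 35.7% of 32851 promoter windows. The Slc1a3 window was 45.3% G and C, the lowest of the 8, and that of Slc38a2 was the highest at 73.0%. The letters TGATGNAA of the amino acid response element, through which ATF4 acts, were in 0 of the 8 windows and in 3.97% of all windows, which says only that these letters are not within these 300 bases.

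Slc1a3 encodes the sodium-driven glutamate and aspartate carrier GLAST, best known from astrocytes (chr15:8634124-8710764). Its FPKM was 9.84 and 14.4 in the females labelled KO, 10.1 and 9.31 in the males labelled KO, 15.5, 16.3 and 11.7 in the females labelled WT, and 24.3 and 40.5 in the males labelled WT. The 2 males labelled WT were the highest of the 9, and the genotypes overlapped only where KO female 2 exceeded WT female 3. The level was 10.9 ± 2.32 FPKM under the KO label and 21.7 ± 11.5 under the WT label (SD, n = 4 and 5), and Slc1a3 fell by 0.98 on the log2 scale (SE 0.19, 95% CI -1.43 to -0.54, limma adjusted p 0.0418). By sex the log2 difference was -0.27 in females (SE 0.26, adjusted p 0.716) and -1.69 in males (SE 0.28, adjusted p 0.0715). The test of the difference between the sexes gave -1.42 (SE 0.38, unadjusted p 0.00644, adjusted p 0.624). In order of group means, females labelled KO (12.1 FPKM) differed from their neighbours, males labelled KO (9.70) and females labelled WT (14.5), by less than their own SD (3.19), and males labelled WT (32.4) stood above them. The adjusted p was over 0.05 when any 1 of 7 of the 9 libraries was left out, each except KO male 2 and WT male 1, and reached 0.159 without KO female 1. Without KO male 1 the log2 difference was -1.01 (adjusted p 0.0582).

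**Figure D3:**
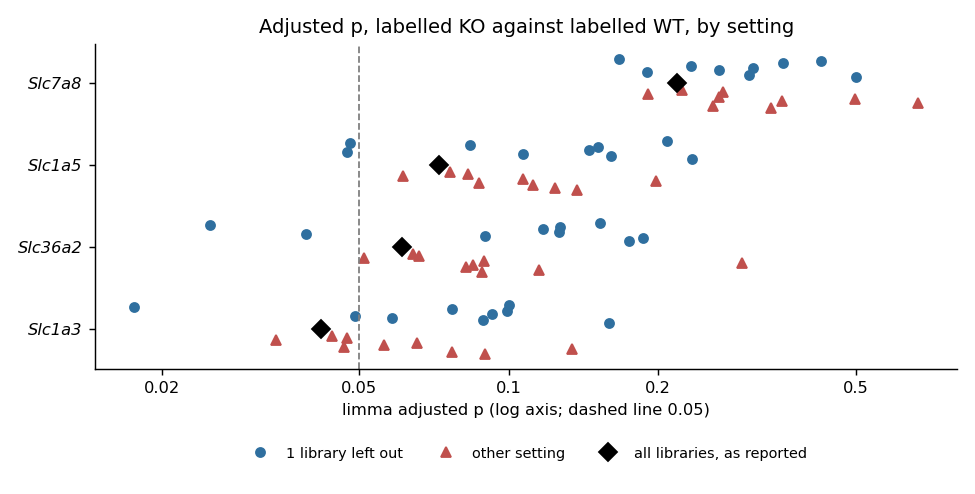
Limma adjusted p (log axis) of Slc1a3, Slc36a2, Slc1a5 and Slc7a8 over both sexes under each processing choice, with circles for 1 library left out, triangles for other settings, diamonds for the values reported and a dashed line at 0.05. The points of Slc1a3 lie on both sides of the line, from 0.0176 to 0.159.

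Slc1a5 encodes ASCT2, the sodium-dependent exchanger that brings glutamine into cells (chr7:16781340-16798274). Its FPKM was 119.6 and 137.0 in females labelled KO, 105.0 and 142.0 in males labelled KO, 189, 176 and 129 in females labelled WT, and 199.9 and 291 in males labelled WT. Only WT female 3 fell within the range of the libraries labelled KO. The means were 125.9 ± 16.9 and 197 ± 59.3 FPKM (SD, n = 4 and 5), and the log2 difference of -0.66 (SE 0.17, 95% CI -1.06 to -0.27) had an adjusted p of 0.0722. It was -0.34 (SE 0.23) in females and -0.98 (SE 0.25) in males, with a difference between the sexes of -0.64 (SE 0.34, adjusted p 0.718). Without KO male 1 it was -0.55 (adjusted p 0.107).

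Slc36a2 encodes PAT2, a proton-coupled carrier of glycine, alanine and proline that is known as a surface marker of brown adipocytes (chr11:55158470-55185077). Its FPKM was 179 and 167 in females labelled KO, 118 and 144 in males labelled KO, 212, 199 and 210.0 in females labelled WT, and 170.2 and 221 in males labelled WT. WT male 1 was below KO female 1, and no other pair of a KO and a WT library was out of order. The means were 152 ± 27.1 and 202 ± 19.7 FPKM (SD, n = 4 and 5). The log2 difference of -0.42 (SE 0.10, 95% CI -0.64 to -0.19) had an adjusted p of 0.0609, which rose to 0.295 when each library was centred on its median. Leaving out KO male 2 or WT male 1 brought the adjusted p to 0.0390 or 0.0250 for Slc36a2 and to 0.0473 or 0.0478 for Slc1a5. Without KO male 1 the log2 difference of Slc36a2 was -0.35 (adjusted p 0.0894).

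Slc36a2 and Slc1a5 made up most of the transporter message. Over these 10 genes and 32 other plasma membrane amino acid carriers, listed with earlier results known, the pair held 67.1% (KO male 1) to 77.0% (WT female 2) of the summed FPKM. The 10 together held 84.5% to 92.1%. The sum over all 42 was 333 to 419 FPKM in libraries labelled KO and 466 to 668 in those labelled WT, so that these ranges did not overlap. This sum is a description that follows mainly the 2 abundant genes. Brown adipocyte markers summed to 6401 to 8284 FPKM under the KO label and 6024 to 7844 under the WT label. The part of brown adipocyte content in the transporter sum was not tested.

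Slc7a8 encodes LAT2, a light chain that exchanges neutral amino acids (chr14:54722209-54781946). Its FPKM was 6.76 and 8.08 in females labelled KO, 3.10 and 2.88 in males labelled KO, 5.56, 5.11 and 6.60 in females labelled WT, and 7.29 and 5.24 in males labelled WT. Both females labelled KO were above all females labelled WT, and both males labelled KO were below both males labelled WT, a pattern met by 2.58% of all tested genes. The log2 difference was 0.37 in females (SE 0.18, adjusted p 0.449) and -1.05 in males (SE 0.20, adjusted p 0.0785). The difference between the sexes was -1.42 (SE 0.27, 95% CI -2.05 to -0.78), with an unadjusted p of 0.000974 and an adjusted p of 0.614. No gene passed the adjusted threshold for that test with limma, while 7.01% had an unadjusted p under 0.05. Over both sexes the estimate was -0.34 (SE 0.14, adjusted p 0.218). Without KO male 1 the difference between the sexes was -1.47 (adjusted p 0.506).

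Slc7a10 encodes Asc-1, a light chain for small neutral amino acids and D-serine that is known as a surface marker of white adipocytes (chr7:35186385-35201114). Its FPKM was 1.32 and 3.97 in females labelled KO, 0.591 and 3.43 in males labelled KO, 6.73, 2.13 and 2.67 in females labelled WT, and 2.77 and 13.5 in males labelled WT. The highest library, WT male 2, exceeded the lowest, KO male 1, 22.9-fold, the widest range of the 10 genes. WT female 1 and WT male 2, the 2 highest for Slc7a10, were also the 2 highest for the summed white adipocyte markers, at 415 and 347 FPKM against 50.2 to 145 in the others. Most of that sum was Retn, the adipocyte hormone resistin, at 287 and 268 FPKM, and Sncg of the same list was lower in WT male 2 (36.4 FPKM) than in the 3 females labelled WT (52.1 to 94.3). The part of white adipocyte content in the Slc7a10 values was not tested. The log2 difference by label was -1.33 (SE 0.73, 95% CI -3.02 to 0.35, adjusted p 0.365), and it was -0.70 without KO male 1. The gene Lrp3 overlaps exons of Slc7a10 on the opposite strand, and whether the counting used strand is not given in the sources used here.

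Slc7a5 encodes LAT1, the light chain that supplies leucine and other large neutral amino acids to growing cells (chr8:121881150-121907694). Its FPKM was 0.700 and 0.627 in females labelled KO, 2.05 and 0.221 in males labelled KO, 0.728, 0.494 and 0.549 in females labelled WT, and 0.824 and 1.53 in males labelled WT. The highest and the lowest of the 9 values were the 2 males labelled KO. The log2 difference was -0.28 (SE 0.60, 95% CI -1.68 to 1.13, adjusted p 0.867), and it was -1.08 (SE 0.27, adjusted p 0.0703) without KO male 1 and 0.53 (SE 0.27, adjusted p 0.271) without KO male 2. KO male 1, the library with the lymphocyte markers, was thus also the highest for LAT1. The predicted gene Gm20388 overlaps exons of Slc7a5 on the opposite strand, so its reads may be counted in either gene.

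**Figure D4:**
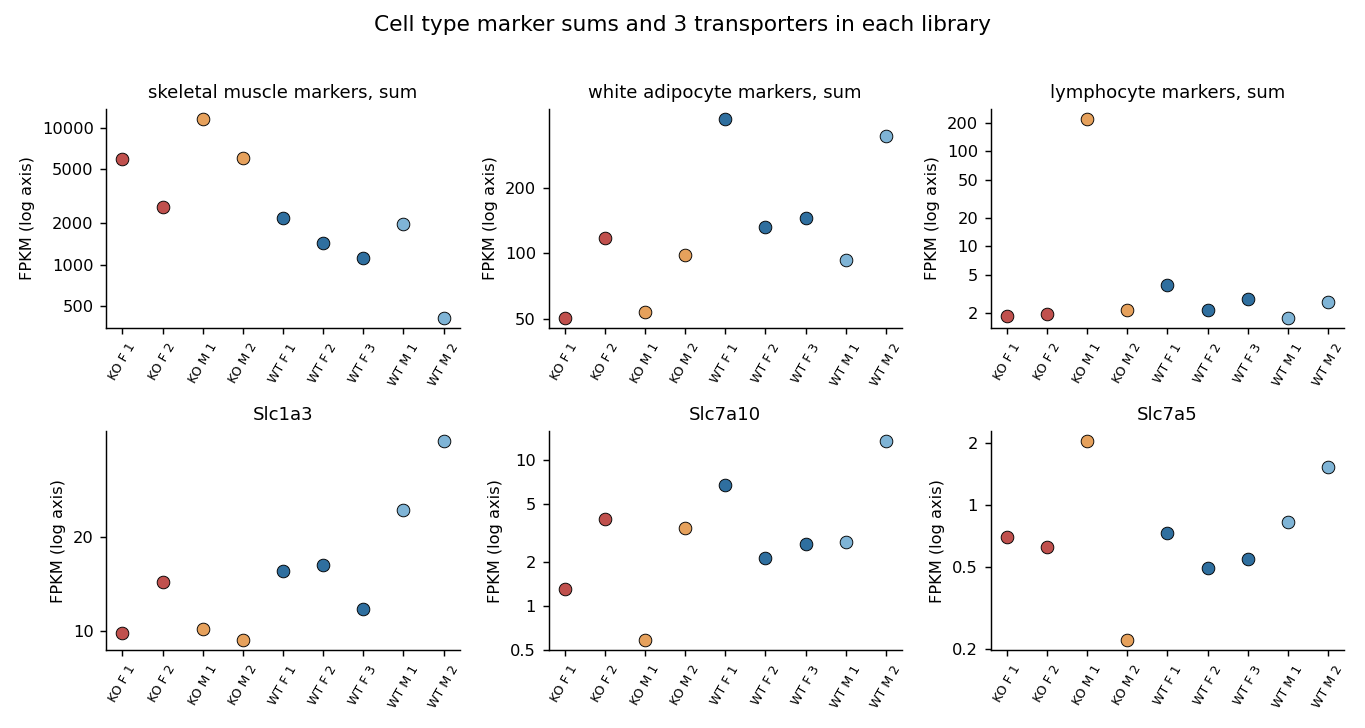
Summed FPKM of skeletal muscle, white adipocyte and lymphocyte markers (upper row) and FPKM of Slc1a3, Slc7a10 and Slc7a5 (lower row) in each library, on log axes. KO male 1 is highest for muscle and lymphocyte markers and for Slc7a5, and WT female 1 and WT male 2 are highest for white adipocyte markers and Slc7a10.

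Slc3a2 encodes CD98hc, the heavy chain that these light chains share (chr19:8706882-8723369). Its FPKM ran from 20.9 (KO male 2) to 26.7 (KO female 1) with a median of 25.1 under the KO label, and from 20.9 (WT male 1) to 32.3 (WT female 3) with a median of 25.6 under the WT label. The groups overlapped throughout, and the whole range was 1.55-fold, narrow beside that of its light chains. The log2 difference was -0.05 (SE 0.11, adjusted p 0.860), with a 95% interval of -0.31 to 0.20. It was -0.12 (adjusted p 0.547) without KO male 1, and its sign turned with scaling, to 0.0136 under quantile normalization.

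The most abundant light chain was Slc7a6, which encodes y+LAT2 and is not one of the 10, except in KO female 2, where Slc7a8 was higher (8.08 against 6.98 FPKM). Slc7a6 held 34.3% to 61.9% of the summed FPKM of 6 light chains (Slc7a5, Slc7a6, Slc7a7, Slc7a8, Slc7a10 and Slc7a11), and Slc7a5 held 1.50% to 13.6%. Slc7a6 alone was at 6.16 to 7.74 FPKM under the KO label and at 10.1 to 14.2 under the WT label. These ranges did not overlap, as was so for 9.07% of all tested genes. The sum of the 6, of which Slc7a6 is a large part, was 14.7 to 20.3 FPKM under the KO label. Under the WT label it was 21.8 to 35.6, again with no overlap. The level of Slc3a2 over this sum was 1.24 to 1.66 under the KO label and 0.721 to 1.35 under the WT label, where WT female 3 had 1.35 and KO female 2 had 1.24. Both measures are descriptions, with no test.

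**Figure D5:**
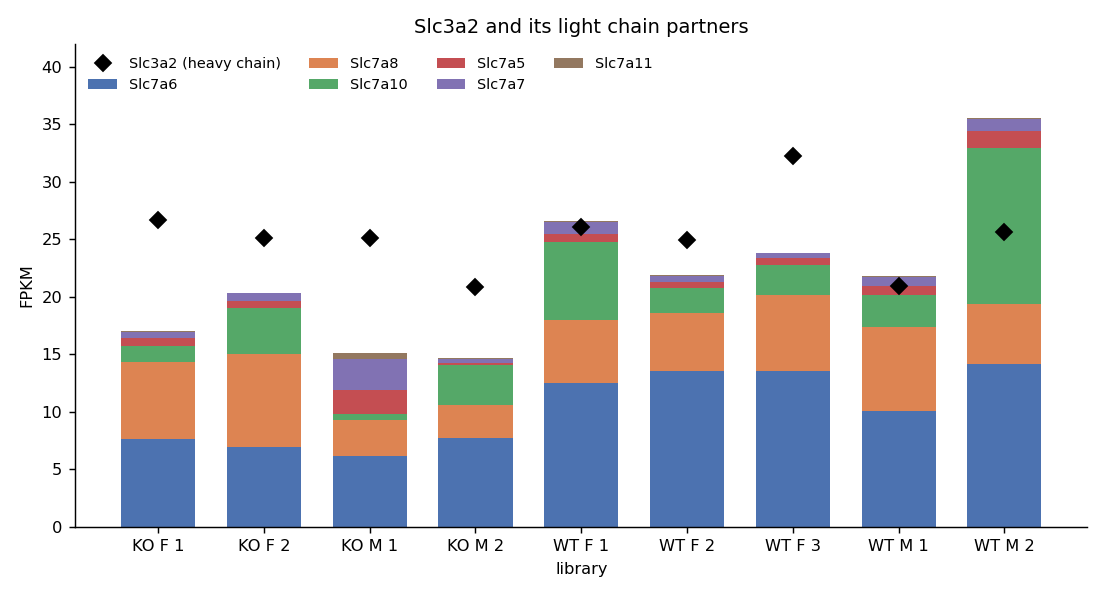
FPKM of the heavy chain Slc3a2 (diamonds) over the stacked FPKM of its 6 light chains (bars) in each library, with the axis starting at 0. The heavy chain lies between 20.9 and 32.3 FPKM, while the light chain sum runs from 14.7 in KO male 2 to 35.6 in WT male 2.

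Slc7a1 encodes CAT1, the carrier of arginine and lysine (chr5:148327410-148399904). Its FPKM was 0.667 and 0.442 in females labelled KO, 1.25 and 0.547 in males labelled KO, and 0.459 to 0.577 with a median of 0.568 in the 5 libraries labelled WT. KO male 1 was the highest, and KO female 2 the lowest. By label it differed by 0.34 on the log2 scale (SE 0.29, 95% CI -0.33 to 1.001, adjusted p 0.592) and 0.04 (SE 0.23, adjusted p 0.932) without KO male 1.

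Slc38a2 encodes SNAT2, the sodium-coupled carrier that cells raise when amino acids run short (chr15:96687392-96699730). Its FPKM was 13.5 and 12.0 in females labelled KO, 13.0 and 9.60 in males labelled KO, 9.18, 9.81 and 13.1 in females labelled WT, and 9.53 and 9.29 in males labelled WT. WT female 3 stood apart from the other libraries labelled WT, and KO male 2 was the lowest of those labelled KO. On the log2 scale the label difference was 0.26 (SE 0.14, 95% CI -0.06 to 0.58, adjusted p 0.359), and it was 0.15 (adjusted p 0.515) without KO male 1.

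Slc43a1 encodes LAT3, a facilitator of branched-chain amino acid transport that needs no heavy chain (chr2:84838850-84863594). Its FPKM ran from 2.74 to 3.94 with a median of 3.68 under the KO label and from 2.52 to 5.69 with a median of 3.58 under the WT label. All libraries labelled KO lay within the WT range. Its log2 difference was -0.14 (SE 0.25, 95% CI -0.71 to 0.43, adjusted p 0.832), and it was -0.0089 (adjusted p 0.988) without KO male 1.

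Within the sexes, none of the 10 passed the adjusted threshold in limma, where 0.0204% of all genes did so in females and 0.0136% in males. The median log2 difference of the 10 was -0.05 in females and -0.66 in males, against -0.07 and -0.08 over all genes. An unadjusted p under 0.05 was reached by 0 of the 10 in females (12.7% of all genes) and by 4 in males (16.6%), namely Slc1a3, Slc7a8, Slc1a5 and Slc36a2. Libraries labelled KO and WT did not overlap for 2 of the 10 in females (40.4% of all genes) and for 5 in males (39.4%). The difference between the sexes had an unadjusted p under 0.05 for Slc7a8 and Slc1a3 and an adjusted p of at least 0.614 for both.

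Among the 32 other plasma membrane carriers, 15 were above 0 in all libraries and could be tested, and 6 were at 0 in all 9. Slc7a6, the most abundant light chain, was lower under the KO label, at 7.61, 6.98, 6.16 and 7.74 FPKM against 12.5, 13.5, 13.5, 10.1 and 14.2, with no overlap (log2 difference -0.82, SE 0.12, limma adjusted p 0.0293, and 0.0405 without KO male 1). Slc38a3, which encodes the glutamine carrier SNAT3, was higher, at 3.26, 1.59, 2.60 and 3.27 FPKM against 0.807, 1.05, 0.539, 0.913 and 0.401 (log2 difference 1.92, SE 0.35, adjusted p 0.0370, and 0.0482 without KO male 1). Both calls were lost when either female labelled KO, any female labelled WT or WT male 2 was left out (adjusted p 0.0652 to 0.142). Each was 1 call among 15, beside 2.17% lower and 1.43% higher over all genes. The muscle marker sum was likewise higher in every library labelled KO, and its part in the Slc38a3 values was not tested. Slc6a6, the taurine carrier and the most abundant of these genes, had a log2 difference of -0.11 (SE 0.14, adjusted p 0.747). The median over the 15 was -0.06.

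None of 7 lysosomal carriers passed (median log2 difference -0.05), and Slc36a1, the lysosomal relative of Slc36a2, had 2.61 ± 0.465 against 3.53 ± 0.269 FPKM (SD, n = 4 and 5), a log2 difference of -0.45 (SE 0.11, limma adjusted p 0.0675). Of 12 mitochondrial carriers, 1 rose and 0 fell, beside 1.43% and 2.17% of all genes (median -0.01). That carrier was Slc25a12, the aspartate and glutamate exchanger of excitable tissues including muscle, at 14.6 ± 6.49 against 4.87 ± 1.67 FPKM (log2 difference 1.56, SE 0.33, adjusted p 0.0493). KO male 1, the highest for muscle markers, was also its highest library at 23.3 FPKM, and without it the log2 difference was 1.35 (adjusted p 0.0730). The call was also lost without any 1 of the 5 females or without WT male 2, up to an adjusted p of 0.174, with log2 differences of 1.297 to 1.83 over the libraries left out. The part of muscle in the Slc25a12 values was not tested. Sfxn1, the mitochondrial serine carrier, and Slc25a22, a glutamate carrier, were the most abundant, with log2 differences of 0.16 (adjusted p 0.510) and 0.02 (adjusted p 0.972).

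Of 24 genes of the amino acid response, the programme that ATF4 runs when amino acids are scarce, 1 rose and 0 fell, beside 1.43% and 2.17% of all genes. Trib3, a pseudokinase that ATF4 induces, rose from 2.03 ± 0.486 to 4.39 ± 0.582 FPKM (SD, n = 5 and 4), with every library labelled KO above every library labelled WT, where 9.07% of all genes did not overlap (log2 difference 1.10, SE 0.18, limma adjusted p 0.0347, and 0.0472 without KO male 1). Leaving out any 1 female, or WT male 2, brought its adjusted p to between 0.0600 and 0.134. The estimate was above 0 for 10 and below 0 for 14, with a median of -0.28. A limma unadjusted p under 0.05 was reached by 9 of the 24, 3 of them higher and 6 lower. Of all genes, 20.2% reached it and 14.2% did so with a negative estimate. Cebpb and Eif4ebp1, the most abundant of them, had log2 differences of -0.36 (adjusted p 0.373) and -0.23 (adjusted p 0.230).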

How the data were processed

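Total RNA from BAT was selected for poly A and sequenced in paired ends. Per the submitters' processing notes, the authors used bcl2fastq 1.8.4, TopHat2 2.0.11 and Bowtie on mm10, and deposited 1 table of FPKM per library. The gene annotation and the use of strand are not given in the sources used here. Libraries are separate mice, numbered in accession order, and 0 columns of values were left out.

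FPKM were taken to log2 with no pseudocount for the 14675 genes above 0 in all 9 libraries. Of the 24356 symbols, 18933 were above 0 in at least 1 library. limma 3.58.1 in R 4.3.3 fitted a mean per label and sex group with a mean-variance trend, and p-values were adjusted by Benjamini-Hochberg over all 14675 genes, with a threshold of 0.05. The comparison over both sexes averages the female and male differences. The linear model of the study's methods, at a p under 0.01, was an alternative, as were other scalings, filters and fits and leaving out each library. The transporters, the other lists and the tests were chosen with earlier results of these data known. Named genes are the 10 transporters, the genes of each other list that passed the threshold, and, where described, the 2 most abundant of each list. Cell type markers were used as summed FPKM, with those that passed the threshold named. Slc7a7, Slc7a11 and Slc38a1 were singled out after their values were seen. Gene positions are from GENCODE M21 on GRCm38. Tables and plots used Python 3.11.15, pandas 2.3.3, numpy 2.4.6 and matplotlib 3.10.9.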

Additional observations from a re-analysis of the deposited data

Results flagged for a closer look

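Slc7a8 was singled out because the label difference went one way in every female and the other way in every male. The difference between the sexes was -1.42 on the log2 scale, with a limma adjusted p of 0.614 that ran from 0.0566 (without KO male 2) to 0.976 (without KO female 2) over the alternatives.

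Slc38a2 was singled out because WT female 3, at 13.1 FPKM, lay far from the other 4 libraries labelled WT, with a share of 0.811 of the group's range between it and the next library. This was 1 of 20 checks for a library that stands apart within a labelled genotype, and the rule, Dixon's test at its 95% level, is built to pick about 1 in 20 groups by chance.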

How the results depend on the processing

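The 1 transporter with an adjusted p under 0.05 over both sexes (Slc1a3) became 0 with no filter and a pseudocount of 0.1 FPKM (170 genes in all, against 529), with median centring (222 genes), without the interaction, without the mean-variance trend (34 genes), with array weights (55 genes) and under the linear model of the methods. That linear model was read at an unadjusted p under 0.01, at which 503 genes passed. Averaged over the sexes and at the same threshold, it kept Slc1a3 and gave 1107 genes. Leaving out 1 library gave 0 to 3 transporters and 8 to 1105 genes over both sexes, and 0 to 3 transporters in males, namely 3 without KO male 2 and 2 without WT male 1. The 3 transporters with an exact permutation p under 0.05 became 1 with median centring and 0 to 2 with 1 library left out. The cause was not tested.

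Of the estimates that turned in sign, the linear model of the methods, whose label term is the female difference by construction, gave 0.19 for Slc7a5, -0.0157 for Slc7a1, 0.37 for Slc7a8 and 0.18 for Slc43a1. Median centring gave 0.0037 for Slc3a2 over both sexes, 0.0169 in females and -0.0264 for the difference between the sexes, and 0.0932 for Slc7a1 in females. Quantile normalization gave 0.0136 for Slc3a2 over both sexes, 0.0879 in males, and 0.18 for Slc7a1 in females, and a pseudocount of 1 FPKM gave 0.0008 for the last. With 1 library left out, Slc7a5 ran from -1.08 to 0.53 over both sexes, -2.35 to 0.87 in males and -2.54 to 0.68 for the difference between the sexes. Slc3a2 ran from -0.13 to 0.0184, in females from -0.16 to 0.021, in males from -0.16 to 0.13 and between the sexes from -0.0708 to 0.22. Slc7a10 in females ran from -1.35 to 0.24, Slc7a1 in females from -0.31 to 0.28, Slc38a2 between the sexes from -0.24 to 0.20, Slc43a1 from -0.31 to 0.0271 and in females from -0.0045 to 0.47, and Slc1a3 in females from -0.54 to 0. None of these estimates had passed the threshold.

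Slc7a6, Slc38a3, Slc25a12 and Trib3, whose alternatives were added after the data had been seen, kept their direction in all 18 settings each, with adjusted p from 0.00912 to 0.174. Scaling moved the median of all genes from -0.07 to -0.02 (median centring) and -0.03 (quantile normalization). Groups of 2 and 3 libraries and unknown fragment counts limit the precision. No paired analysis was possible because the labels give the groups animal numbers of their own and no shared replicate numbers.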

Other observations

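Among the carriers outside the 10, Slc38a1 (SNAT1, a glutamine carrier), Slc7a11 (xCT, the cystine and glutamate exchanger) and Slc7a7 (y+LAT1) were picked out after their values were seen. Slc38a1 was at 3.20 FPKM in KO male 1 and at 0.0607 to 0.273 in the other 8 libraries. Slc7a11 was at 0.532 FPKM in KO male 1 and at 0.0227 to 0.0817 elsewhere, and Slc7a7 at 2.67 and at 0.356 to 1.06. The same library had the highest Slc7a5 (2.05 FPKM), Slc7a1 (1.25 FPKM), lymphocyte marker sum (220 FPKM) and macrophage marker sum (551 FPKM) of the 9, and its cell division markers summed to 7.71 FPKM against 0.312 to 1.41 elsewhere. The part of immune cells in these transporter values was not tested.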
